A study of Mus musculus with 6 samples.

Results

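The 52 genes described here encode the machinery of mitosis: the spindle, the kinetochore, the condensin complex and the apparatus of cytokinesis, with the kinases and the checkpoint that govern them. They form a list of named mitosis genes, and the rule that picks them uses no measured value, though the list was drawn up with earlier results of these data known. All 52 are among the 35970 gene symbols of the deposited table, in which the TPM of the transcripts of each symbol were summed. TPM give the share of each transcript in its library after correction for its length. The mitosis genes held between 273 and 375 TPM per library in the Neurl1b CRISPRi mice and between 403 and 629 TPM in the non-targeting mice.

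The study set livers repopulated under a guide RNA against Neurl1b (3 mice) against livers repopulated under a non-targeting guide RNA (3 mice), to learn what repression of Neurl1b does to hepatocytes that regrow an injured liver. Mice of both groups were Fah-/- and dCas9+. Fah is the last enzyme of tyrosine breakdown, and dCas9 is a Cas9 that cannot cut and blocks transcription where a guide places it (CRISPR interference, CRISPRi). All mice were kept on nitisinone (7.5 µg/mL), which protects Fah-/- hepatocytes, until 10 µg of transposon plasmid was injected into the tail vein. The plasmid was pkt2-fah-GFPL10a-CRISPRi-Neurl1b in one group and pkt2-fah-GFPL10a-CRISPRi-Nontargeting in the other, and both were given with the virus AAV8.TBG.PI.Cre.rBG, in which the hepatocyte promoter TBG drives Cre. Nitisinone was then withheld from both groups, and livers were taken after 4 weeks. From 400 mg of each liver, ribosomes bearing the GFP-L10a fusion were captured by anti-GFP, a method called translating ribosome affinity purification, and poly(A) RNA was sequenced. The titles name separate mice, so the p-values below measure the spread between mice. Their age was not given in the sources used here, and the RNA of 1 liver mixes all cells that took up the plasmid.

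At mitosis, cyclin-dependent kinase and the Aurora and Polo kinases drive the condensation of chromosomes and the assembly of a bipolar spindle. Kinetochores built on centromeric chromatin attach chromosomes to spindle microtubules, and the spindle checkpoint holds back the anaphase-promoting complex until all are attached. Cdc20 then activates that complex, securin is destroyed, separase parts the sister chromatids, and the central spindle directs the cut between the daughter cells. Most of these genes are transcribed in G2 and M phase under the factors Foxm1 and B-Myb and the DREAM complex, which act through the cell cycle homology region (CHR) and CCAAT boxes of their promoters. Adult hepatocytes seldom divide and re-enter the cycle when liver mass is lost, as in the Fah-/- liver, and many of them pass through mitosis without cytokinesis, which leaves them with a pair of nuclei or with polyploid nuclei.

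The promoters of 8 of the genes with large differences between the groups are printed here, because the members share promoter letters that the choice of genes did not use. Each stretch runs 5′ to 3′ from 120 bases before to 30 bases after the annotated RefSeq start of transcription, in build GRCm38.p6. Capitals mark the CHR (TTTGAA or TTCGAA, or TTCAAA and TTCGAA on the other strand) and the CCAAT box (CCAAT, or ATTGG on the other strand). The stretches are, in order, chr11:117849117-117849266 (plus strand), chr2:118813883-118814032 (plus), chr4:118437314-118437463 (minus), chr7:127042391-127042540 (minus), chr9:61946770-61946919 (minus), chr15:99651627-99651776 (minus), chr5:30666766-30666915 (plus) and chr11:40733408-40733557 (minus).
Birc5: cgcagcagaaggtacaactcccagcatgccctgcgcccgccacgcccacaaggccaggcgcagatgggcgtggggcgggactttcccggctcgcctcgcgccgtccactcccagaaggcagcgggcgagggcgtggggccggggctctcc
Knstrn: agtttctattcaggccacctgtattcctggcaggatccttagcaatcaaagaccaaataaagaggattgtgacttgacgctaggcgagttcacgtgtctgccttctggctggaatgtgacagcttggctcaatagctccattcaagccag
Cdc20: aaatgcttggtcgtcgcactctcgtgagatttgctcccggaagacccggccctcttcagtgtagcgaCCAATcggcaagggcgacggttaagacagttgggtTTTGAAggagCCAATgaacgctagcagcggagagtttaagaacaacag
Kif22: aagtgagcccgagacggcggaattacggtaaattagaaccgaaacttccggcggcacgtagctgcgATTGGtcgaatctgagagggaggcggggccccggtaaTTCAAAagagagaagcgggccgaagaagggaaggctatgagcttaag
Kif23: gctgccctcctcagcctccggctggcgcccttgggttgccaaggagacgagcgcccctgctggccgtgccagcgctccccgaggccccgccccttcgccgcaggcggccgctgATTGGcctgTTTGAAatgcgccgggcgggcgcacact
Racgap1: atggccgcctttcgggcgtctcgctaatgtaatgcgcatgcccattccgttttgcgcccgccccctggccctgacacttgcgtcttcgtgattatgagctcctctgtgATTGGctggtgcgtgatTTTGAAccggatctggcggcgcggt
Cenpa: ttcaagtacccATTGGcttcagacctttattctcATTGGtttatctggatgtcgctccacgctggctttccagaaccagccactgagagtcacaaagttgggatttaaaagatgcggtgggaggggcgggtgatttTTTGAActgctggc
Hmmr: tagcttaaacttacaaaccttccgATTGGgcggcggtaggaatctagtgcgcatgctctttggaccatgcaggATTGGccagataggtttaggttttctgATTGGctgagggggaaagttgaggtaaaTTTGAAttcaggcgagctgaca
In Cdc20, Kif22, Kif23, Racgap1, Cenpa and Hmmr a CHR and a CCAAT box stand in the stretch. Neither stands in the stretches of Birc5, which encodes survivin, or Knstrn.

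RefSeq promoter windows of 300 bases, from 250 before to 50 after the start, were matched by symbol for 44 of the 52 mitosis genes. Aurkb, Cdc25c, Incenp, Spc24, Kif20a, Tpx2, Smc4 and Foxm1 were not matched. A CHR, searched on both strands, stood in the window of 36 of the 44 members (81.8%), against 5854 of all 27025 symbols with a window (21.7%). A CCAAT box stood in 30 of the 44 members (68.2%), against 41.1% of all symbols. Both motifs, whose matches may share a base, stood in 29 members (65.9%), against 8.61% of all symbols and 7.05% of the symbols tested below. A second CCAAT box was present in 17 members (38.6%), against 13.3% of all symbols. Among the 57 further mitosis genes with a window, a CHR stood in 56.1%, a CCAAT box in 68.4%, both in 40.4% and a second CCAAT box in 43.9%, so the CCAAT shares were near those of the members. Positions were taken over all 48 windows of the 44 members, so a match in overlapping windows of 1 gene is counted in each. The CCAAT boxes lay before the start site in 67 of 69 matches, at a median of 68 bases before it. CHR matches lay closer to the start, with 28 before and 24 after it. Neither motif was found in the windows of Birc5, Knstrn, Nuf2, Mad2l1, Pttg1, Nusap1 and Ncaph, and Cenpe had only the CCAAT box. Differences between the groups, tested below, ran over much the same range with and without the CHR. The log2 fold changes of the 25 tested members with a CHR went from -1.27 to 0.29, with a median of -0.66, and 14 of them had an unadjusted p below 0.05. The 7 tested members with a window and no CHR went from -1.55 to 0.03, with a median of -0.63, and 3 had such a p. These 14 and 3 were all lower, against 3.19% of all tested genes lower and 10.1% higher at such a p. A difference between these sets of genes was not tested.

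**Figure D1:**
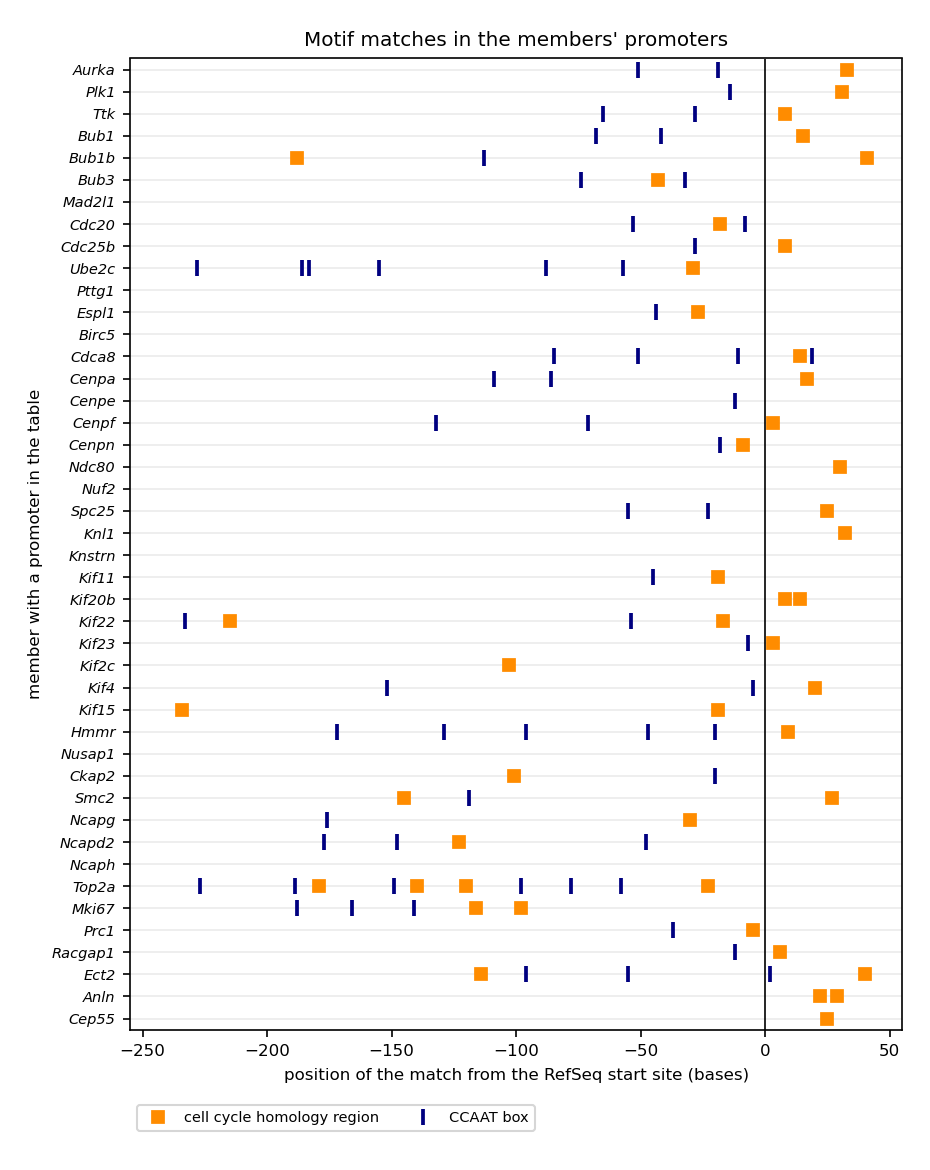
Matches of the cell cycle homology region (orange squares) and the CCAAT box (blue bars) in the promoter windows of the 44 members with a RefSeq promoter, 1 row per gene and 1 window per gene, against the distance from the start site in bases. CCAAT boxes lie almost all before the start, and CHR matches cluster about it. The median of the CCAAT boxes was 68 bases before the start over all 48 windows of these members, not all of which are drawn.

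Before the mitosis genes, the target was measured. Neurl1b, a ubiquitin ligase for ligands of Notch, had 0.295, 0.351 and 0.307 TPM in the CRISPRi mice, against 1.22, 0.897 and 0.688 TPM in the non-targeting mice. Every CRISPRi library was below every non-targeting one, with a mean at 33.9% of the non-targeting mean. Each library had from 17813 to 18680 genes above 0 TPM, and read numbers cannot be recovered from TPM, so the depth is unknown. The 10598 genes with a mean of at least 1 TPM over the 6 libraries were tested with limma on log2(TPM + 1). The values below called log2 fold change are Neurl1b CRISPRi minus non-targeting on this scale, which understates the change of low genes.

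Most mitosis genes had lower mean TPM in the Neurl1b CRISPRi mice, and none passed the test. The checkpoint genes, counted without the checkpoint kinase Ttk, were the least clearly lower. The mean TPM was lower in the CRISPRi group for 50 of the 52 members, all but Bub3 and Pttg1, against 32.1% of all symbols above 0. Of the 39 members that passed the filter, 37 had a log2 fold change below 0, against 26.0% of all tested genes. Their median log2 fold change was -0.66, with a range from -1.55 for Knstrn to 0.29 for Bub3, against a median of 0.18 over all tested genes. With limma and Benjamini-Hochberg adjustment over all 10598 genes, 0 members were lower and 0 higher at an adjusted p below 0.05, where 0.0% of all genes were lower and 0.0189% higher. The lowest adjusted p of a member was 0.25, for Birc5. At an unadjusted p below 0.05, 20 members were lower and 0 higher, against 3.19% of all tested genes lower and 10.1% higher. In 20 of the 39 every CRISPRi library was below every non-targeting one, against 4.57% of all tested genes, and 19 of these also had such a p. The count of 20 at an unadjusted p was 13 when CRISPRi mouse 1 was left out and 25 when CRISPRi mouse 3 was left out.

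Most tested genes had higher TPM in the CRISPRi group, so the members were also read relative to that shift. Median-of-ratios scaling divides each library by a size factor, which sets the typical gene to the same level in every library. The size factors were 1.09, 1.09 and 1.05 in the CRISPRi mice, against 1.12, 0.848 and 0.838 in the non-targeting mice. Non-targeting mouse 1 thus stood with the CRISPRi mice, and the shift lay in non-targeting mice 2 and 3. The scaling took the median of all tested genes to -0.00 and that of the 39 members to -0.79. Among all genes it turned 338 lower and 1070 higher genes at an unadjusted p below 0.05 into 706 lower (6.66%) and 682 higher (6.44%). Among the members it gave 29 lower and 0 higher at an unadjusted p, and again 0 past the adjusted threshold. Pttg1, at a log2 fold change of 0.03 without scaling, was at -0.18 with it.

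**Figure D2:**
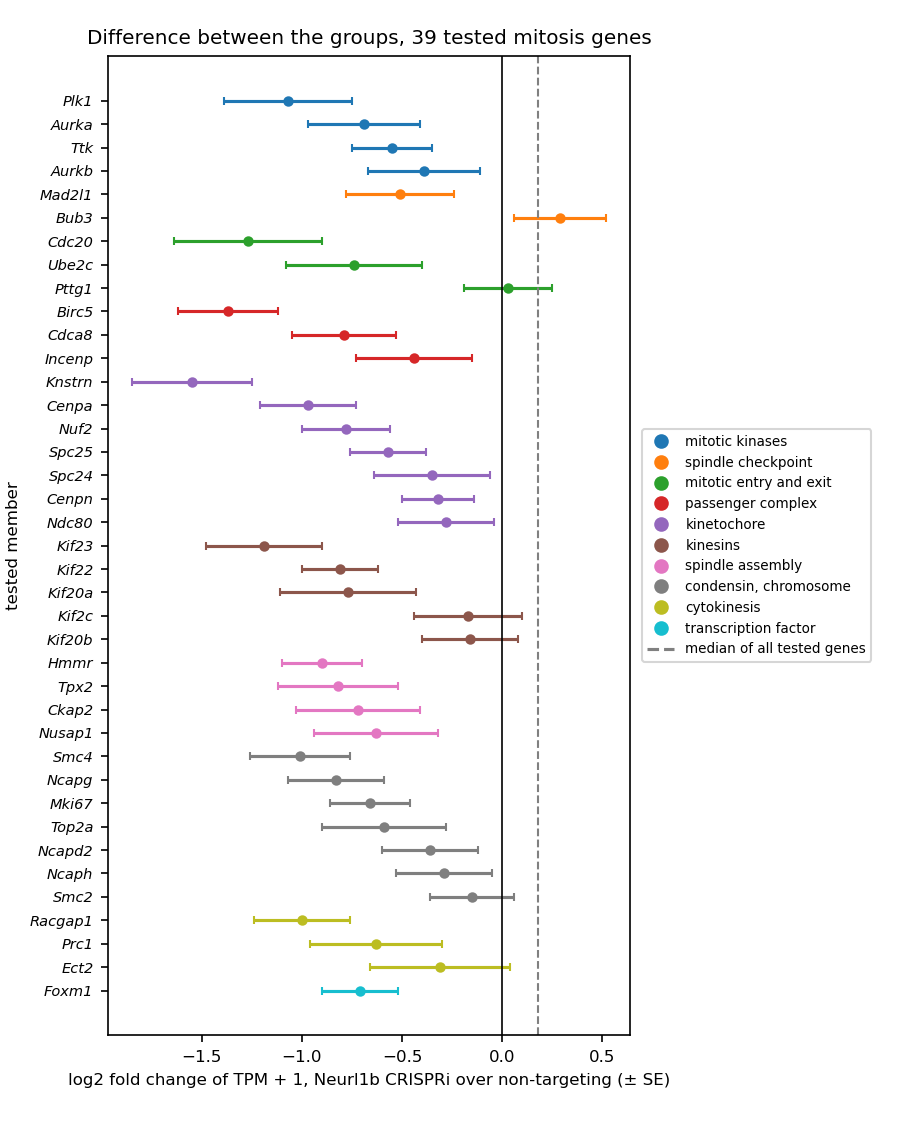
Log2 fold change of TPM + 1 (Neurl1b CRISPRi over non-targeting, points, with the limma standard error as bars) for the 39 tested members, grouped by function and coloured by class. The dashed line is the median of all tested genes at 0.18, and 37 of the 39 points lie below 0.

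The 13 members below 1 TPM were Bub1, Bub1b, Cdc25b, Cdc25c, Espl1, Cenpe, Cenpf, Knl1, Kif11, Kif4, Kif15, Anln and Cep55. Nearest to the limit were Anln at a mean of 0.972 TPM, below it, and Smc2 at 1.06 TPM, above it. Of the 39 that passed, 8 reached a mean of 1 TPM in the non-targeting group alone, so counts over the 39 favour genes high in that group. These were Ttk, Ndc80, Kif20b, Kif23, Smc2, Ncaph, Mki67 and Foxm1, and they were tested only because of their level in that group. Taken without the filter, the median over all 52 was -0.49, against 0.05 over all 21941 symbols above 0, and 18 members were lower and 0 higher at an unadjusted p below 0.05, against 2.20% of all symbols lower and 7.52% higher. Every member whose groups did not overlap had a mean of at least 1 TPM. Of all 52 members 20 were thus separated and lower, against 3.51% of all 21941 symbols. No member was at 0 in any library.

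The mitotic kinases were lower in mean TPM in the CRISPRi group, 3 of the 4 without overlap, against 4.57% of all tested genes. Plk1, the Polo kinase that acts from mitotic entry to cytokinesis, had 1.74, 3.46 and 4.17 TPM in the CRISPRi mice, against 11.6, 5.85 and 5.84 TPM in the non-targeting mice. All 3 CRISPRi libraries were below all 3 others, and the means differed 2.48 times (log2 fold change -1.07, SE 0.32, adjusted p = 0.323 with limma). Ttk, the checkpoint kinase Mps1, had 0.526, 0.644 and 1.02 TPM in the CRISPRi mice, against 2.12, 1.28 and 1.21 TPM in the non-targeting mice. It was also separated, though CRISPRi mouse 3 came close to non-targeting mice 2 and 3 (log2 fold change -0.55, SE 0.20). Aurka, the centrosomal Aurora kinase, averaged 8.01 ± 1.83 TPM in the CRISPRi mice and 14 ± 5.58 TPM in the non-targeting mice (SD, n = 3 each), without overlap. For Aurkb, the Aurora kinase of the passenger complex, the means were 2.09 ± 0.322 and 3.23 ± 1.69 TPM in the same order, and the groups overlapped because non-targeting mouse 3 was at 1.85 TPM. Adjusted p in limma ran from 0.323 to 0.495 over the class.

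The spindle checkpoint class leaves out Ttk, which is counted with the kinases and was separated. The class showed no separation of the groups in any of its 4 members, of which 2 were tested. Its summed TPM was 33.2, 35.7 and 37.0 in the CRISPRi mice, against 51.6, 27.9 and 30.1 in the non-targeting mice. All CRISPRi sums thus lay between non-targeting mouse 1 and the other non-targeting mice. Bub3 held most of each sum, so this order is largely that of Bub3. The mean was higher in the CRISPRi group for Bub3 and lower for the other 3 members. Mad2l1, the checkpoint inhibitor of Cdc20, had 7.23, 10.2 and 11 TPM in the CRISPRi mice, against 20.4, 10.9 and 11.4 TPM in the non-targeting mice. Non-targeting mouse 1 stood apart, and the others lay close to CRISPRi mice 2 and 3 (log2 fold change -0.51, SE 0.27, adjusted p = 0.408 with limma). Bub3, which carries Bub1 and BubR1 to the kinetochore, had 25.5, 24.4 and 24.5 TPM in the CRISPRi mice, against 28.9, 15.8 and 17.6 TPM in the non-targeting mice. It was level among CRISPRi mice, which lay between non-targeting mouse 1 and the other non-targeting mice (log2 fold change 0.29, SE 0.23, adjusted p = 0.529). The kinase Bub1 and its relative Bub1b, which encodes BubR1, were too low to test, at means of 0.555 and 0.518 TPM in the CRISPRi mice against 0.644 and 0.871 TPM in the non-targeting mice.

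Among the genes of mitotic entry and exit, Cdc20 was separated and the abundant members overlapped. Cdc20, the activator of the anaphase-promoting complex, had 5.47, 11.3 and 13.1 TPM in the CRISPRi mice, against 38.9, 18.2 and 19.5 TPM in the non-targeting mice. Every CRISPRi library was below every other one, at a 2.56 times lower mean (log2 fold change -1.27, SE 0.37, adjusted p = 0.323 with limma). Ube2c, the ubiquitin-conjugating enzyme of that complex, had 13.8, 25.9 and 35.6 TPM in the CRISPRi mice, against 56.1, 32.9 and 33.9 TPM in the non-targeting mice. CRISPRi mouse 3 reached above non-targeting mice 2 and 3, so the groups overlapped (log2 fold change -0.74, SE 0.34, adjusted p = 0.392). Pttg1, the securin that holds separase inactive, had 94.0, 77.4 and 80.5 TPM in the CRISPRi mice, against 99.9, 59.9 and 92.1 TPM in the non-targeting mice. It had the highest mean of all 52 members, 84.0 TPM over the 6 libraries, and its groups had like means (log2 fold change 0.03, SE 0.22, adjusted p = 0.952). Separase itself, Espl1, averaged 0.288 TPM in the CRISPRi mice and 0.681 TPM in the non-targeting mice, and was not tested. The phosphatases Cdc25b and Cdc25c, which activate cyclin-dependent kinase, averaged 0.509 and 0.507 TPM in the CRISPRi mice and 0.532 and 1.09 TPM in the non-targeting mice, also below the filter.

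The chromosomal passenger complex corrects faulty attachments and, later, guides cytokinesis. It consists of Aurkb with the 3 genes of this class. Birc5, its survivin subunit, had 8.91, 14.6 and 18.4 TPM in the CRISPRi mice, against 34.3, 37.9 and 37.2 TPM in the non-targeting mice. The gap between the groups was wide, and non-targeting mouse 1 was not the highest library here. The means were 14 ± 4.78 and 36.5 ± 1.93 TPM in that order (SD, n = 3 each), a log2 fold change of -1.37 (SE 0.25, unadjusted p = 0.000449, adjusted p = 0.25 with limma). Cdca8, the borealin subunit, had 3.78, 5.53 and 6.90 TPM in the CRISPRi mice, against 13.2, 7.41 and 9.72 TPM in the non-targeting mice. Its groups were separated by a narrow gap (log2 fold change -0.79, SE 0.26, adjusted p = 0.341). Incenp, the scaffold of the complex, averaged 4.30 ± 1.93 TPM in the CRISPRi mice and 6.06 ± 1.65 TPM in the non-targeting mice, with overlap (adjusted p = 0.461).

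In the kinetochore class, 5 of 10 members were separated, all lower in the CRISPRi group, against 3.51% of all symbols above 0. Knstrn, which encodes the kinetochore protein kinastrin (SKAP), had 5.06, 11.6 and 12.2 TPM in the CRISPRi mice, against 31.4, 29.3 and 24.7 TPM in the non-targeting mice. Every non-targeting library was well above the highest CRISPRi one, and the mean was 2.96 times lower in the CRISPRi group (log2 fold change -1.55, SE 0.30, adjusted p = 0.259 with limma). Cenpa, the histone H3 variant that marks the centromere, had 10.1, 15.6 and 17.9 TPM in the CRISPRi mice, against 28.7, 34.5 and 23.9 TPM in the non-targeting mice. Its highest library was non-targeting mouse 2, and the groups were separated (log2 fold change -0.97, SE 0.24, adjusted p = 0.310).

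The Ndc80 complex, the microtubule-binding arm of the kinetochore, is built from Ndc80, Nuf2, Spc24 and Spc25, and its subunits differed among themselves. Nuf2 had 1.14, 1.74 and 2.06 TPM in the CRISPRi mice, against 4.75, 2.82 and 3.11 TPM in the non-targeting mice, and was separated (log2 fold change -0.78, SE 0.22, adjusted p = 0.323 with limma). Spc25 was separated too, at 15.9 ± 3.12 TPM in the CRISPRi mice and 23.9 ± 1.99 TPM in the non-targeting mice (adjusted p = 0.344). Spc24, the most abundant of the 4 per length, averaged 37.4 ± 4.58 TPM in the CRISPRi mice and 50.3 ± 18.9 TPM in the non-targeting mice and overlapped, because non-targeting mouse 2 was lowest of all at 28.5 TPM. For Ndc80 the means were 0.995 ± 0.450 and 1.42 ± 0.531 TPM in the same order, with overlap (adjusted p = 0.556). Cenpn, which binds centromeric nucleosomes, was separated by a narrow gap between 1.2 TPM in CRISPRi mouse 2 and 1.29 TPM in non-targeting mouse 2 (unadjusted p = 0.116, adjusted p = 0.432). The kinesin Cenpe, the large kinetochore protein Cenpf and the scaffold Knl1 were below the filter, at means of 0.232, 0.750 and 0.0994 TPM in the CRISPRi mice and 0.625, 0.910 and 0.160 TPM in the non-targeting mice. Cenpf varied widely within both groups, with 1.66, 0.101 and 0.491 TPM in the CRISPRi mice, against 2.04, 0.355 and 0.331 TPM in the non-targeting mice.

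Kinesins are motor proteins that slide, cross-link or shorten microtubules. Kif22, the chromokinesin Kid that pushes chromosome arms outward, had 5.07, 5.19 and 6.33 TPM in the CRISPRi mice, against 12.9, 9.46 and 9.17 TPM in the non-targeting mice. The groups were separated with little spread in the CRISPRi group (log2 fold change -0.81, SE 0.19, adjusted p = 0.310 with limma). Kif23, the motor of the central spindle, had 0.279, 0.843 and 1.53 TPM in the CRISPRi mice, against 4.65, 2.42 and 2.65 TPM in the non-targeting mice. Its mean was 3.66 times lower in the CRISPRi group, the highest such ratio of the 52 (log2 fold change -1.19, SE 0.29, adjusted p = 0.310). Kif20a, which takes the passenger complex to the midzone, had 1.15, 1.96 and 2.68 TPM in the CRISPRi mice, against 7.23, 3.01 and 2.48 TPM in the non-targeting mice, with overlap through CRISPRi mouse 3 (adjusted p = 0.381). The related Kif20b averaged 0.972 TPM in the CRISPRi mice and 1.23 TPM in the non-targeting mice, and the microtubule depolymerase Kif2c averaged 1.42 and 1.86 TPM in the same order, both overlapping (adjusted p = 0.730 and 0.736). Not tested were Kif11 (Eg5, which pushes the spindle poles apart), the chromokinesin Kif4 and the spindle motor Kif15. They averaged 0.512, 0.427 and 0.255 TPM in the CRISPRi mice, against 0.789, 0.780 and 0.411 TPM in the non-targeting mice.

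Spindle assembly factors had the closest set of log2 fold changes among the classes of several genes, from -0.90 to -0.63. Hmmr, which helps to anchor and organise the spindle poles, had 1.51, 1.85 and 1.82 TPM in the CRISPRi mice, against 5.33, 3.07 and 4.07 TPM in the non-targeting mice. The CRISPRi libraries were close together and all below the others (log2 fold change -0.90, SE 0.20, adjusted p = 0.292 with limma). Tpx2, the activator of Aurka on the spindle, had 1.15, 2.19 and 2.46 TPM in the CRISPRi mice, against 6.71, 3.23 and 3.02 TPM in the non-targeting mice. It was separated as well (log2 fold change -0.82, SE 0.30, adjusted p = 0.344). The microtubule-associated Nusap1 and Ckap2 averaged 1.85 and 5.42 TPM in the CRISPRi mice and 3.54 and 9.49 TPM in the non-targeting mice. Both overlapped, and Ckap2 had an unadjusted p of 0.0457 (adjusted p = 0.371).

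Condensin packs chromatin into mitotic chromosomes, and its 5 subunits listed here did not stand at one ratio. Smc4, one of its ATPases, had 3.14, 4.88 and 5.33 TPM in the CRISPRi mice, against 7.89, 8.93 and 13.1 TPM in the non-targeting mice, separated (log2 fold change -1.01, SE 0.25, adjusted p = 0.310 with limma). Ncapg, a regulatory subunit, had 0.352, 1.2 and 1.5 TPM in the CRISPRi mice, against 2.26, 2.65 and 2.55 TPM in the non-targeting mice, also separated (log2 fold change -0.83, SE 0.24, adjusted p = 0.323). Smc2, the partner ATPase of Smc4, averaged 0.936 ± 0.230 TPM in the CRISPRi mice and 1.18 ± 0.542 TPM in the non-targeting mice, with overlap (log2 fold change -0.15, SE 0.21, adjusted p = 0.714). The subunits Ncapd2 and Ncaph overlapped too, with log2 fold changes of -0.36 (SE 0.24) and -0.29 (SE 0.24).

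Mki67 and Top2a, common markers of dividing cells, are grouped with the chromosome genes. Mki67, which coats mitotic chromosomes, had 0.378, 0.713 and 1.00 TPM in the CRISPRi mice, against 2.20, 1.42 and 1.42 TPM in the non-targeting mice. The groups were separated, at a 2.40 times lower mean (log2 fold change -0.66, SE 0.20, adjusted p = 0.330 with limma). Top2a, the topoisomerase that disentangles sister chromatids, had 2.49, 3.70 and 5.51 TPM in the CRISPRi mice, against 9.57, 4.48 and 5.26 TPM in the non-targeting mice. CRISPRi mouse 3 was above non-targeting mice 2 and 3, so the groups overlapped (log2 fold change -0.59, SE 0.31, adjusted p = 0.408). In ribosome-bound RNA pooled over the cells of a liver, fewer dividing cells and less of each captured RNA per dividing cell cannot be told apart.

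Cytokinesis genes split between Racgap1, which was separated, and the others. Racgap1, which forms centralspindlin with Kif23, had 1.94, 2.45 and 3.15 TPM in the CRISPRi mice, against 8.34, 5.13 and 4.88 TPM in the non-targeting mice. Every CRISPRi library was below the rest, and the mean was 2.43 times lower (log2 fold change -1.0, SE 0.24, adjusted p = 0.310 with limma). Both centralspindlin genes were thus separated. Prc1, which bundles the microtubules of the midzone, had 2.20, 3.47 and 4.18 TPM in the CRISPRi mice, against 9.66, 4.27 and 3.85 TPM in the non-targeting mice. Ect2, the exchange factor that activates RhoA at the equator, had 2.96, 2.63 and 2.59 TPM in the CRISPRi mice, against 7.70, 2.55 and 2.20 TPM in the non-targeting mice. In both, non-targeting mouse 1 stood far above the other 5 libraries, which lay close together for Ect2 (log2 fold change -0.63, SE 0.33 for Prc1 and -0.31, SE 0.35 for Ect2, adjusted p = 0.407 and 0.647). The log2 fold change of Ect2 was 0.14 without non-targeting mouse 1. The ring protein Anln and the abscission factor Cep55 averaged 0.673 and 0.679 TPM in the CRISPRi mice and 1.27 and 0.830 TPM in the non-targeting mice, and were not tested.

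Foxm1, the transcription factor of G2 and M phase genes, had 0.543, 0.720 and 1.04 TPM in the CRISPRi mice, against 2.41, 1.76 and 1.52 TPM in the non-targeting mice. The groups did not overlap, and the mean was 2.47 times lower in the CRISPRi group (log2 fold change -0.71, SE 0.19, unadjusted p = 0.00513, adjusted p = 0.316 with limma). Foxm1 passed the filter through the non-targeting group alone. Without the filter its unadjusted p was 0.00857 and its adjusted p 0.451 with limma.

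**Figure D3:**
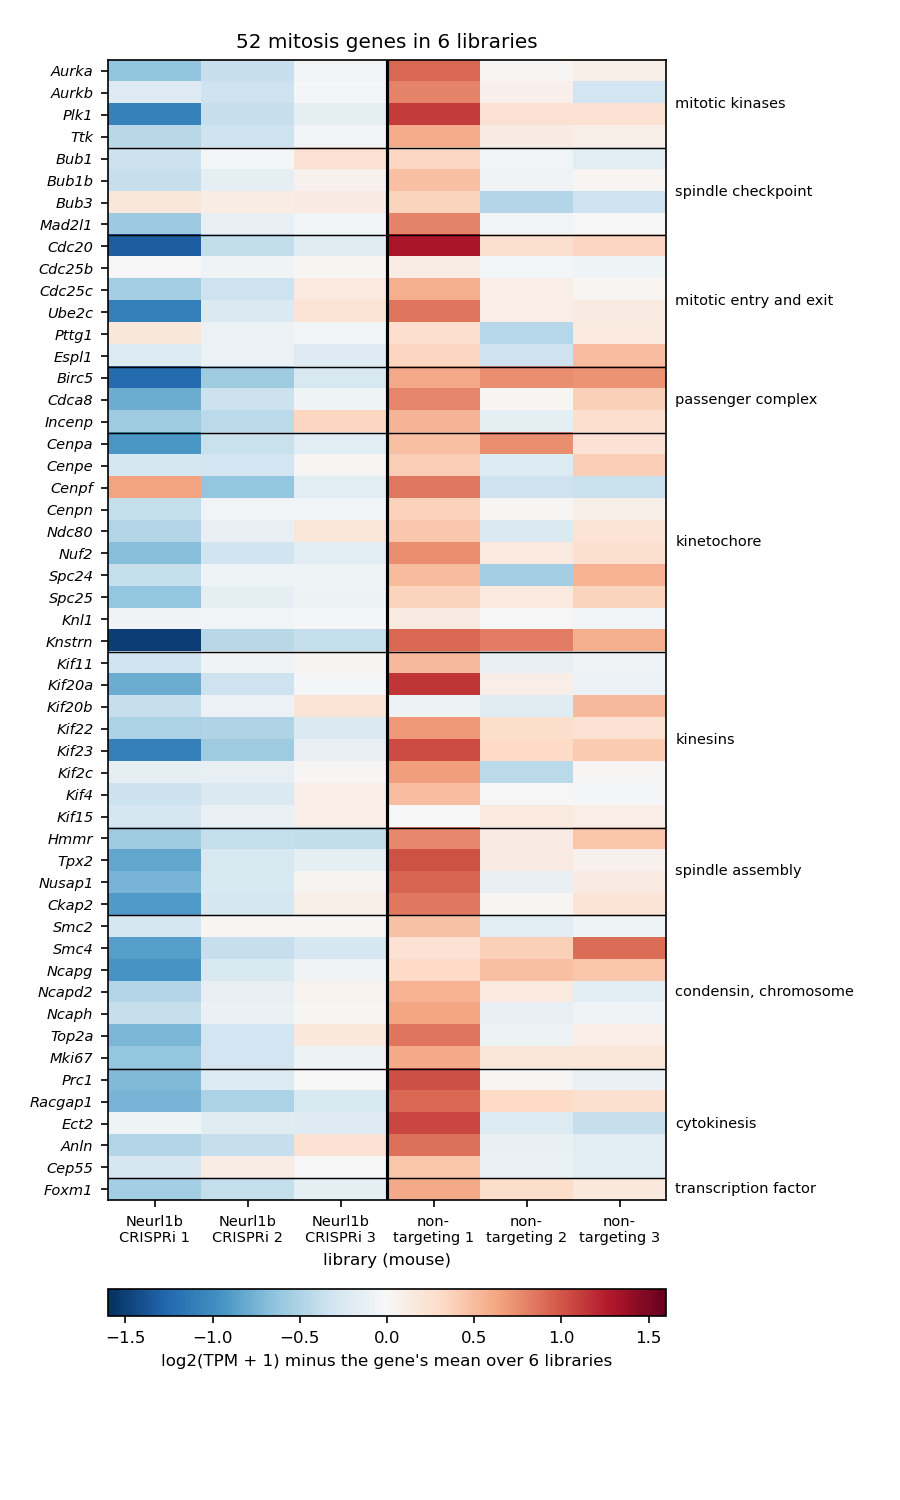
Log2(TPM + 1) of each of the 52 members minus its mean over the 6 libraries, with the Neurl1b CRISPRi mice in the left columns and the non-targeting mice in the right ones, and members in rows by class. The column of non-targeting mouse 1 is the highest in 43 rows and that of CRISPRi mouse 1 the lowest in 42 rows.

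The contrast between the groups rested in part on which mice were compared. Non-targeting mouse 1 had the highest value of 43 of the 52 members, against 22.2% of all symbols above 0, and CRISPRi mouse 1 had the lowest value of 42 members, against 24.0% of all symbols. The mean log2(TPM + 1) over the 52 members was 1.6, 1.89 and 2.11 in the CRISPRi mice, against 2.76, 2.17 and 2.28 in the non-targeting mice. All CRISPRi means were below all non-targeting means, with a narrow gap between CRISPRi mouse 3 and non-targeting mouse 2. CRISPRi mouse 1 was below all non-targeting mice for 43 members, CRISPRi mouse 2 for 37 and CRISPRi mouse 3 for 20, against 11.4%, 9.39% and 11.5% of all symbols above 0 in that order.

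Leaving out non-targeting mouse 1, the highest library for most members, took some members past the threshold. Of the 35 members that passed the filter among the remaining 5 libraries, the median log2 fold change was -0.48, against 0.29 over the 10558 genes tested. Under median-of-ratios scaling it was -0.77 without that mouse, close to the -0.79 with it. In limma 7 members fell at an adjusted p below 0.05, against 2.24% of all genes, and 1 rose, against 23.1%. Those that fell were Birc5, Kif22, Hmmr, Smc4, Racgap1, Knstrn and Foxm1, with log2 fold changes of -1.42, -0.67, -0.74, -1.14, -0.79, -1.48 and -0.59 in that order. Their adjusted p, in the same order, were 0.0258, 0.0258, 0.0267, 0.0283, 0.0297, 0.0362 and 0.0489. Among them Foxm1 passed the filter through the non-targeting mice alone. Bub3, the member that rose, had a log2 fold change of 0.54 and an adjusted p of 0.0264. With median-of-ratios scaling as well, Birc5, Kif22, Hmmr, Smc4 and Racgap1 fell, with adjusted p from 0.0367 to 0.0427, against 2.74% of all genes lower and 1.74% higher. Knstrn, Foxm1 and Bub3 then missed the threshold, at adjusted p of 0.0516, 0.0541 and 0.260. The 20 members separated in 6 libraries were the same 20 that were separated and lower in these 5, against 6.60% of all symbols above 0. Bub3 and Ect2 were then separated and higher, against 34.8% of all symbols. These values rest on 2 non-targeting mice.

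**Figure D4:**
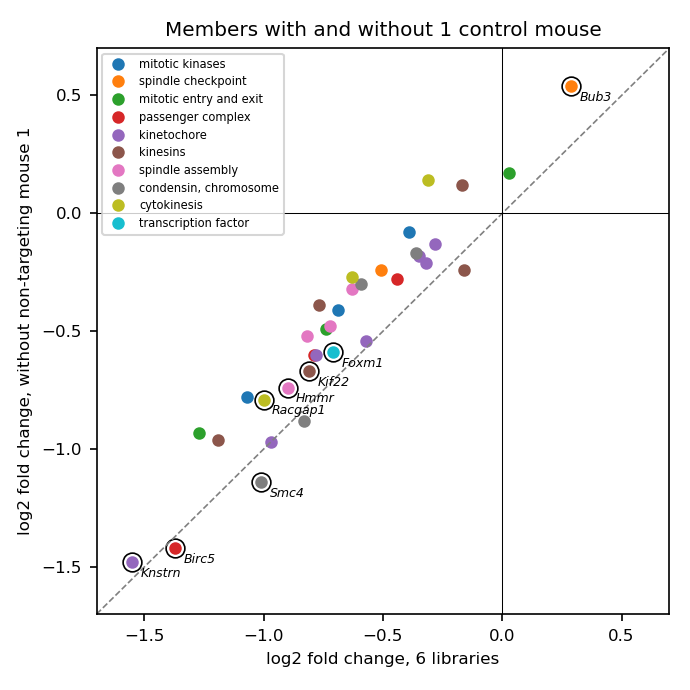
Log2 fold change of TPM + 1 (Neurl1b CRISPRi over non-targeting) of the 35 members tested in both fits, over 6 libraries on the x axis and without non-targeting mouse 1 on the y axis, coloured by class. Most points lie above the dashed line of equal values, and the 8 circled and named members had an adjusted p below 0.05 in the fit that lacked that mouse. Both axes share 5 libraries.

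The level of a symbol was summed over transcripts, and the members differed in how many carried it. All of the Plk1 and Mki67 signal came from 1 transcript in both groups, and the main transcript held 99.7% of Birc5 in the CRISPRi mice and 99.6% in the non-targeting mice. For Hmmr the shares were 99% in the CRISPRi mice and 97.6% in the non-targeting mice. Knstrn, Cenpa and Kif23 were divided among many transcripts, the largest holding 41.4%, 32.7% and 22.7% in the CRISPRi mice and 48.6%, 40.3% and 37.9% in the non-targeting mice. In Aurkb the transcript that led overall held 25.5% of the TPM in the CRISPRi mice and 65.2% in the non-targeting mice. It stood at 0.0794, 1.08 and 0.442 TPM in the CRISPRi mice, against 3.58, 1.07 and 1.67 TPM in the non-targeting mice, so that this transcript overlapped between groups as the gene did. Shares among transcripts of 1 gene are estimates of kallisto, and their differences between groups were not tested.

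Genes next to mitosis in the cell cycle did not all follow the members. Of 70 further mitosis genes, 46 were tested, 0 passed in limma, and 13 were lower and 3 higher at an unadjusted p below 0.05. Of all tested genes 3.19% were lower and 10.1% higher at such a p. The median log2 fold change of the 46 was -0.17. Cdca3, a mitotic entry factor, had 6.39, 12.6 and 14.1 TPM in the CRISPRi mice, against 36.3, 28.3 and 21.6 TPM in the non-targeting mice (log2 fold change -1.34, SE 0.30, adjusted p = 0.292). The kinetochore genes Cenpw and Cenpm and the spindle gene Ckap2l had log2 fold changes of -0.67, -0.56 and -0.91, and these 4 were all separated. Of the 46, 11 were separated and lower and 1 higher, against 4.57% and 12.5% of all tested genes. The 3 higher genes, named after their values were seen, were the kinetochore genes Zwint and Cenpt and the augmin subunit Haus8, at log2 fold changes of 1.07, 0.69 and 0.64. In the fit without non-targeting mouse 1, 44 of these genes were tested, of which 1 fell and 6 rose, against 2.24% and 23.1% of all genes. When median-of-ratios scaling was added, 1 fell and 1 rose, against 2.74% and 1.74%.

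Of 10 cyclin and cyclin-dependent kinase genes, 9 were tested and 0 passed in limma, with 3 lower and 1 higher at an unadjusted p below 0.05. Of all tested genes 3.19% were lower and 10.1% higher at such a p. Ccna2, the cyclin of S and G2 phase, had 2.36, 3.94 and 5.75 TPM in the CRISPRi mice, against 13.8, 7.95 and 8.74 TPM in the non-targeting mice. The mitotic cyclin Ccnb1 had 2.60, 3.44 and 5.42 TPM in the CRISPRi mice, against 13.5, 7.29 and 7.59 TPM in the non-targeting mice. For Ccnb2 the values were 3.46, 5.81 and 9.0 TPM in the CRISPRi mice, against 22.1, 14.2 and 11.3 TPM in the non-targeting mice. All 3 were separated, with log2 fold changes of -1.18, -1.11 and -1.28 and adjusted p from 0.310 to 0.312. Of the 9 tested, 3 were separated and lower and 1 higher, against 4.57% and 12.5% of all tested genes. The 1 higher gene, named after its value was seen, was Ccnd3, a cyclin of G1 phase (log2 fold change 0.81, adjusted p = 0.323).

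Of 40 DNA replication genes, 36 were tested and 0 passed in limma, with 2 lower and 2 higher at an unadjusted p below 0.05. Of all tested genes 3.19% were lower and 10.1% higher at such a p. The median log2 fold change of the replication genes was 0.22, near the 0.18 of all tested genes. Of the 36, 23 were above 0, against 7846 of all 10598 tested genes. Mcm10, a factor of origin firing, and Tk1, the thymidine kinase, had log2 fold changes of -0.78 and -0.95. Chaf1a, a histone chaperone, was at 0.63 and Cdt1, an origin licensing factor named after its value was seen, at 0.62. Mean log2(TPM + 1) of the replication list was 2.67, 2.87 and 3.19 in the CRISPRi mice, against 3.18, 2.5 and 2.70 in the non-targeting mice, which overlapped. Non-targeting mouse 1 was the highest non-targeting library in all 4 lists. A difference between the lists was not tested.

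**Figure D5:**
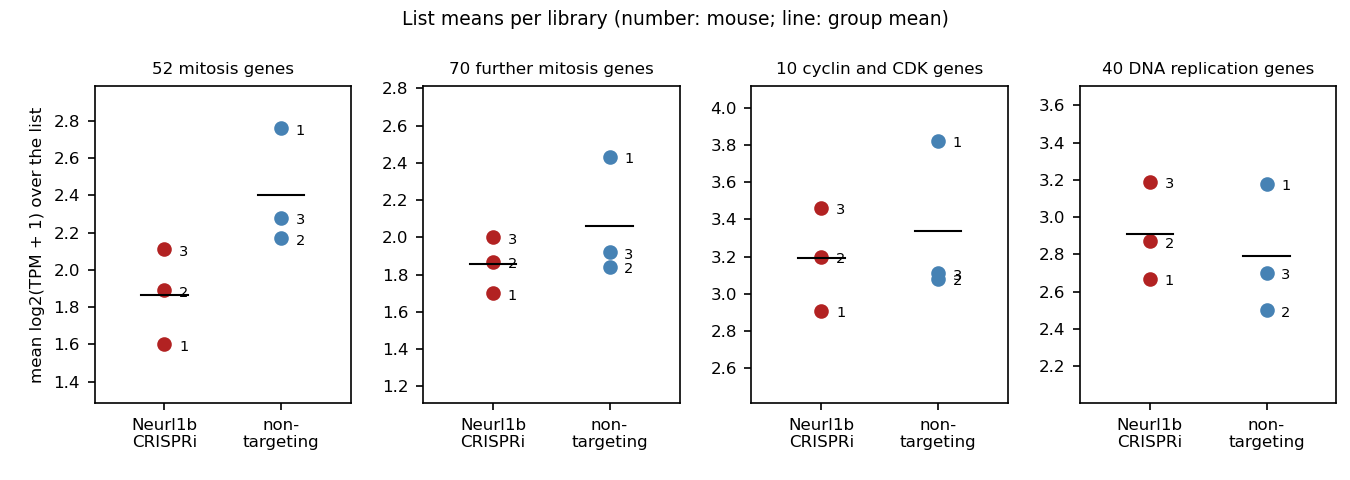
Mean log2(TPM + 1) of 4 gene lists in each library, Neurl1b CRISPRi in red at the left and non-targeting in blue at the right of each panel. Numbers give the mouse, lines the group mean, and all panels span the same range of log2 units. The groups do not overlap for the 52 mitosis genes, at 1.6 to 2.11 in CRISPRi and 2.17 to 2.76 in non-targeting mice, and overlap in the other panels.

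The samples are labelled hepatocytes, and hepatocyte markers led by Alb and Ttr summed to 25300 to 34100 TPM in the CRISPRi mice and 29600 to 61100 TPM in the non-targeting mice. Of the 9 tested hepatocyte markers 7 were below 0 in log2 fold change, against 26.0% of all tested genes, with a median of -0.47. At an unadjusted p below 0.05 in limma 2 were lower, against 3.19% of all tested genes. RNA of other liver cells was present in all mice. Stellate cell markers, led by Dcn and Col3a1, summed to 35.9 to 49.5 TPM in the CRISPRi mice and 16.5 to 32.1 TPM in the non-targeting mice, with 7 of 7 tested genes above 0 in log2 fold change. Kupffer cell markers, led by C1qa and Cd5l, summed to 132 to 196 TPM in the CRISPRi mice and 89.0 to 163 TPM in the non-targeting mice, with 10 of 10 above 0. Of all 10598 tested genes, 7846 were above 0. Both lists were thus higher in mean TPM where the mitosis genes were lower. Under median-of-ratios scaling the stellate median log2 fold change was 0.40 and the Kupffer median 0.25. Without non-targeting mouse 1 as well, these were 0.33 and -0.05. CRISPRi mouse 1 had the highest Kupffer sum and non-targeting mouse 1 the lowest. For the stellate sum the highest was CRISPRi mouse 2 and the lowest non-targeting mouse 2. Endothelial markers (Clec4g, Pecam1) summed to 21.7 to 34.3 TPM in the CRISPRi mice and 20.4 to 29.8 TPM in the non-targeting mice. Erythroid markers (Hba-a2, Hbb-bs) ran from 498 to 1580 TPM in the CRISPRi mice and from 954 to 3900 TPM in the non-targeting mice. All 7 tested erythroid markers were below 0 in log2 fold change, against 26.0% of all tested genes. Their median was -0.71, beside -0.66 for the mitosis genes. Lymphocyte markers (Cd3g, Nkg7) stayed between 1.32 and 2.71 TPM in all mice. No marker of these lists was at 0 in every library. The part of other cells in the levels of the mitosis genes was not tested.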

How the data were processed

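The deposited values are TPM, made by the authors with kallisto on build mm39, per the submitters' processing notes. Its version, transcript set and filters were not given in the sources used here. The table holds 117486 transcripts, of which 168 without a symbol (116 to 143 TPM per library) were left out, and 0 columns of values were unused. Columns sum to 999999.8 to 1000000.2, so TPM keep no depth, no counting interval can be given, and a change of abundant genes moves all others. kallisto divides reads between similar transcripts by estimation.

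Groups and mouse numbers came from the sample titles. Transcripts were summed per symbol, and genes with a mean of at least 1 TPM entered a fit of log2(TPM + 1) by limma 3.58.1 (R 4.3.3, trended empirical Bayes, no covariate, two-sided, Benjamini-Hochberg adjusted p below 0.05 over all tested genes). The fit was also run on simulated data, with genes drawn independently and no shift between libraries. That simulation therefore does not cover the shift seen between these libraries. Ratios called times are of mean TPM.

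The members, lists and tests were chosen with earlier results of these data known. All 52 members are named. Values per library are given for Mki67, Top2a, Foxm1 and the tested members with the smallest p in each class, up to 3 in classes of at least 5 genes and 2 in smaller ones. The 4 smallest p among further mitosis genes, up to 3 in each of the cyclin and replication lists, and the 2 most abundant markers per cell type are also named. The markers of 1 cell type are not reported here. Of the hepatocyte markers 9 of 10 were found in the table.

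Promoters are from RefSeq (GRCm38.p6), matched by symbol, and served only for sequence. Alternatives were pseudocounts of 0.1 and 5, no filter or a mean of at least 5 TPM, median-of-ratios scaling, quantile normalization, array weights, a constant prior, a replicate block, the most abundant transcript alone, an adjusted p of 0.1, and each mouse left out. Median-of-ratios scaling without non-targeting mouse 1 was added after seeing the data.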

Additional observations from a re-analysis of the deposited data

How the results depend on the processing

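Of the results on the mitosis genes, the median log2 fold change of -0.66 kept its sign in all alternatives, between -0.36 (pseudocount 5) and -0.87 (quantile normalization), and between -0.44 and -0.82 when 1 mouse was left out. Members lower past the adjusted threshold, 0 of 39, became 9 with array weights, which gave non-targeting mouse 1 the lowest weight, 0 to 7 without 1 mouse, and 5 without non-targeting mouse 1 under median-of-ratios scaling. With array weights 2210 of all 10598 tested genes passed, lower and higher together, so the 9 are no result about the members. Members higher ranged from 0 to 1 without 1 mouse. Members lower at an unadjusted p below 0.05, 20, became 10 with a mean of at least 5 TPM, where fewer genes are tested, 31 with quantile normalization and 13 to 25 without 1 mouse. Further mitosis genes past the threshold, 0, became 9 with array weights, 0 to 7 without 1 mouse and 2 without non-targeting mouse 1 under median-of-ratios scaling. All genes past the threshold, 2, became 0 with pseudocount 5, without a filter and with quantile normalization, 1 with a mean of at least 5 TPM, 2210 with array weights, 0 to 2673 without 1 mouse, and 473 without non-targeting mouse 1 under median-of-ratios scaling. The cause of these moves was not tested.

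Deviations of same-numbered mice from their group means had correlations of 0.06, -0.10 and -0.28, and those of other pairs ran from -0.17 to 0.22. With 3 mice a group, these values cannot show whether the numbers pair the mice. With the mouse number as a replicate block, 0 members and 2 genes passed and 19 members were lower at an unadjusted p. Among the 25 members with values per library, 7 values changed sign. Pttg1, 0.03, was -0.18 under median-of-ratios scaling, -0.09 under quantile normalization, -0.05 without CRISPRi mouse 1, -0.19 without non-targeting mouse 2, and -0.18 with scaling and without non-targeting mouse 1, with a range up to 0.17 when 1 mouse was left out. Ect2, -0.31, was 0.01 with array weights and 0.14 without non-targeting mouse 1, with a range from -0.58 when 1 mouse was left out. With its most abundant transcript alone it was -0.96. A further 22 values newly passed the threshold, and Ttk and Mki67 were below the filter without non-targeting mouse 1, as were Kif23 and Ncapg with 1 transcript alone. With 3 mice a group and no depth, low members are the least certain.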
